A study of Homo sapiens with 12 samples.

Results

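The replication-dependent histone genes sit in clusters on human chromosomes 6 and 1 and encode the bulk of the histone protein that packs newly made DNA. Members were taken by symbol: H1- followed by a number from 1 to 6, and every symbol beginning with H2AC, H2BC, H3C or H4C, together with H3-4, whose older name begins with HIST3. Of the 19775 genes with a probe set (a group of short array probes for one transcript) that carried 1 gene symbol, 46 were members. They comprised 6 H1, 9 H2A, 14 H2B, 8 H3 and 9 H4 genes, of which 2, H2AC5P and H4C10P, are pseudogenes. The large HIST1 cluster held 42, the HIST2 cluster 1 (H2BC21) and the HIST3 cluster 2 (H2AC25 and H3-4). H2BC12L lies alone on chromosome 21.

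The series asked whether blocking Wee1 changes how prostate cancer cells respond to an Hsp90 inhibitor. Wee1 is a kinase that holds back entry into mitosis, and 17-AAG blocks Hsp90, a chaperone of many kinases. Arrays labelled PC3, an established human prostate cancer line, fell into 4 groups of 3. Control cells, labelled untreated, were given vehicle per the treatment protocol. A single-drug group had Wee1 inhibitor II at 2.5 µM, the other had 17-AAG at 40 nM, and the last had both drugs at those doses. Wee1 inhibitor II went on 24 h before 17-AAG and cells were harvested 48 h after 17-AAG, so each drug had 1 dose and 1 time.

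Core histones H2A, H2B, H3 and H4 form the protein spool of the nucleosome, and linker histone H1 binds where DNA enters and leaves it. Cluster genes are known to be switched on with DNA replication through NPAT, and their messages normally end in a stem-loop bound by SLBP in place of a poly(A) tail. Some, H2BC21, H2BC12 and H2AC6 among them, are also known to give polyadenylated messages, mostly in cells that have stopped dividing. The labelling used here copied RNA from its poly(A) tail, so signals report the polyadenylated part of these transcripts and not the stem-loop messages.

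Promoters of histone genes share short elements, and those of 6 members with a call are shown. H3C2 fell with both drugs and the others rose with Wee1 inhibitor II. The 6 were picked by hand and are not the 6 clearest changes. RefSeq promoter windows (build GRCh38.p14) matched 41 of the 46 members. Each line gives the 150 bases before the annotated start site, 5′ to 3′ on the gene's own strand. Capitals mark the octamer ATTTGCAT or ATGCAAAT, the CCAAT box (CCAAT or ATTGG), the TATA box (TATAAA or TTTATA) and the H1 box (AAACACA or TGTGTTT).
H2BC12 (chr6:27146859-27147008, minus strand): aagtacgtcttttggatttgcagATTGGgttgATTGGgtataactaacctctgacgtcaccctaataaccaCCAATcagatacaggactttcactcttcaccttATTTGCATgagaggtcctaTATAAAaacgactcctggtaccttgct
H2AC6 (chr6:26124022-26124171, plus strand): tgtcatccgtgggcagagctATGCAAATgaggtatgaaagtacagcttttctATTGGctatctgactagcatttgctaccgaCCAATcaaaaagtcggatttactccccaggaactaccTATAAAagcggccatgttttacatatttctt
H2BC21 (chr1:149886683-149886832, minus strand): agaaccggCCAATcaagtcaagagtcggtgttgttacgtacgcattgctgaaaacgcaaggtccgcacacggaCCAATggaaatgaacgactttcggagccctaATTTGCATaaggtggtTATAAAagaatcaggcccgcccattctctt
H2AC25 (chr1:228457874-228458023, minus strand): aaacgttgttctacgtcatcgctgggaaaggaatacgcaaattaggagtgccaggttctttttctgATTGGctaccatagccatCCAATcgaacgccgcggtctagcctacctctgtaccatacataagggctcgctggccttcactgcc
H1-2 (chr6:26056471-26056620, minus strand): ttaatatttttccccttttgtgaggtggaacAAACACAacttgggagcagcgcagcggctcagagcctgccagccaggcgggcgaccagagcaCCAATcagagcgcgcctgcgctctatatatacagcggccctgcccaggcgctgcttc
H3C2 (chr6:26032100-26032249, minus strand): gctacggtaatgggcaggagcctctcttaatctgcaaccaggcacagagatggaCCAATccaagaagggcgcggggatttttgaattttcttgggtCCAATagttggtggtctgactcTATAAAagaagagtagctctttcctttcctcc
In these windows H2BC12 and H2BC21 carried the octamer with its first base at position -46 from the start site, and H2AC6 carried it on the other strand at position -130. No H1 box or octamer match was found in the window of H3C2, and H1-2 had an H1 box at position -119.

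Signals are linear intensities, scaled so that the 2% trimmed mean of each array is 150, with array medians of 17.7 to 23.1. Control replicate 2, which the submitters removed for weak signal, was left out, so the control group has 2 arrays and each treated group 3. Replicates correlated at r = 0.924 to 0.936 across probe sets, against 0.825 to 0.833 for control replicate 2 with the other arrays. On the 11 arrays MLANA and PMEL, which define pigment cells, read 2870 to 9920 and 3690 to 9200. Over the same arrays the prostate marker HOXB13 and the epithelial marker EPCAM stayed at or below 11.3 and 26.2. Summed over 6 measured prostate and epithelial markers, HOXB13 and EPCAM among them, the signal was 794 to 857 on controls. It was 661 to 826 with Wee1 inhibitor II, 836 to 910 with 17-AAG and 1260 to 1360 with both drugs, so others of this list gave signal. CTNNA1 and STAT3, both reported as deleted in PC3, read 2560 to 5040 and 819 to 1300. Control replicate 2 read 2.67 for MLANA, 2.9 for PMEL, 1.57 for CTNNA1, 7.54 for STAT3, 2090 for HOXB13 and 1100 for EPCAM. These values go against the PC3 label on the 11 arrays, and the results are for arrays labelled PC3. Of 6 measured pigment cell markers, 1 rose and 3 fell with Wee1 inhibitor II, 5 rose with 17-AAG and 6 rose with both drugs. The shares of all genes called were 24.9%, 16.7% and 28%. The summed signal of the pigment cell markers was 31700 to 33200 on controls and 25700 to 28300 with Wee1 inhibitor II. It was 39300 to 44600 with 17-AAG and 46500 to 48100 with both. Summed signals of 4 fibroblast markers, mainly LUM, were 1070 to 1220, 418 to 468, 1770 to 1900 and 773 to 828, and those of 4 blood cell markers stayed at or below 114. The gap between 3′ and 5′ ACTB probe sets, a measure of RNA integrity, was 0.69 (log2, SD 0.03, n = 2) on control arrays, 0.68 (SD 0.09, n = 3) with Wee1 inhibitor II, 0.96 (SD 0.08, n = 3) with 17-AAG and 0.96 (SD 0.05, n = 3) with both drugs. The part of this gap and of the marker shifts in the differences was not tested. Nothing in the labels says that replicates were separate cultures, so p-values measure only the spread between these arrays.

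Wee1 inhibitor II was followed by higher signals of 5 H2A and 6 H2B genes. In limma's fit over all genes, with Benjamini-Hochberg adjustment and calls at an adjusted p under 0.05, 13 of the 46 members rose and 1 fell. Over all genes 24.9% were called, 14.5% higher and 10.3% lower. The members' median log2 change was 0.66, against 0.12 over all genes. H2A supplied 5 of 9 and H2B 6 of 14 of the rises, with class medians of 1.40 and 1.33. H1 and H4 added 1 rise each, H1-2 and H4C8, and none of the 8 H3 genes was called (median 0.22). All treated arrays lay above both control arrays for 23 members and below for 2, where 48.9% of all genes had groups that did not overlap. With each array centred on its median, the counts over all genes turned from 2877 higher and 2045 lower to 1444 and 2875, and those of the members were again 13 and 1. With control replicate 2 included, none of the 46 was called, and calls over all genes dropped from 4922 to 1268. With array weights as well, which let limma give a deviating array less influence, 15 members rose and 0 fell. Over all genes 5232 were then called. Fewer cells of a kind and less RNA per cell cannot be told apart in bulk RNA.

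**Figure D1:**
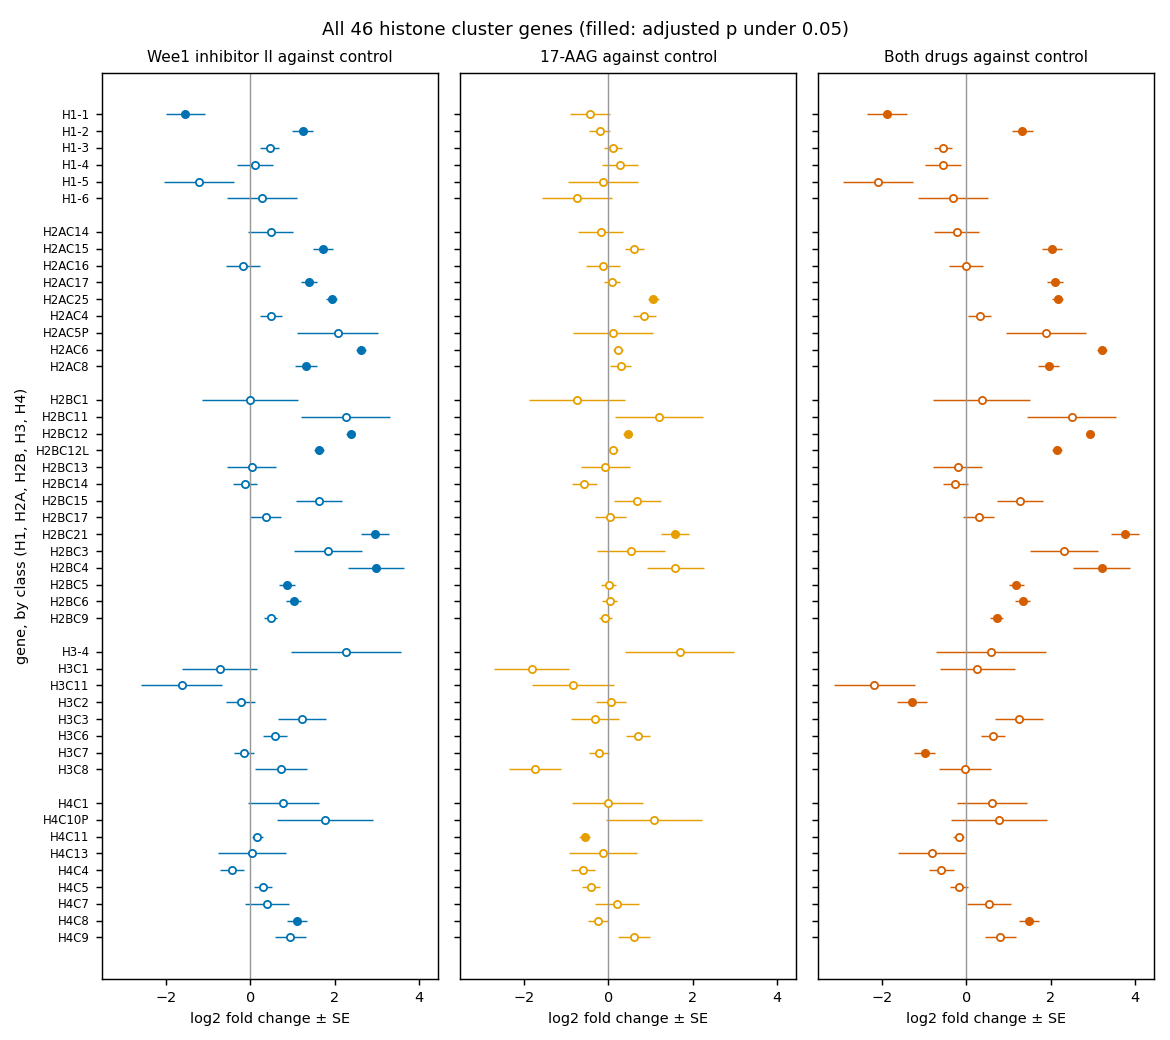
Log2 fold change against control (horizontal axis, ± standard error of the limma fit) of the 46 members (rows, grouped by class) for Wee1 inhibitor II, 17-AAG and both drugs, with filled points at an adjusted p under 0.05. Filled points to the right number 13, 3 and 14, mostly H2A and H2B genes, and those to the left 1, 1 and 3.

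Probe brightness set how well a change could be seen. A group signal of at least 100 in some group was reached by 12 members, whose median within-group SD was 0.19 on the log2 scale, while the other 34 had a median SD of 0.63. The line can be reached through a treated group: H2BC21, H2AC6, H2AC8, H2BC5 and H2BC9 had control signals under 100 and passed it only in groups given Wee1 inhibitor II. Being among the brighter genes is thus partly set by a rise, and no count over them is read as a result. Dim genes were therefore measured with far less precision, and a missing call says little about them.

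H2BC12, an H2B gene of the chromosome 6 cluster, read 297 and 333 on the control arrays and 1650, 1500 and 1770 with Wee1 inhibitor II. Its log2 change was 2.38 ± 0.10 (SE; limma adjusted p = 1.44e-05). No treated array came near a control array. H2AC6, an H2A gene of the same cluster, went from 63.4 and 56.3 to 378, 367 and 365. This change was 2.63 ± 0.12 (limma adjusted p = 1.66e-05), and the 3 treated arrays were nearly alike. H2BC21, the H2B gene of the HIST2 cluster, read 18.2 and 13.7 on controls against 144, 96.8 and 134. It changed by 2.96 ± 0.33 (limma adjusted p = 0.000556) from control signals close to the array medians, and by 1.94 (limma adjusted p = 0.00258) with signals below 32 set to 32.

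H2AC25, the H2A gene of the HIST3 cluster on chromosome 1, rose from 126 and 120 to 512, 406 and 490. The change was 1.93 ± 0.13 (limma adjusted p = 7.15e-05). H2BC12L rose from 166 and 158 to 494, 473 and 538, a change of 1.63 ± 0.12 (limma adjusted p = 0.000102). So probe sets of members outside the chromosome 6 cluster rose as well, with groups that did not overlap. Those of H2BC12L (suffix _x_at) and H2BC21 (suffix _s_at) are of kinds that can match several transcripts. The part of other cluster genes in their signals was not tested. A second probe set of H2AC25 was not called with this drug.

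Smaller rises were seen in 4 more of the brighter genes. H2AC8 (H2A) went from 26.7 and 28 to 75.1, 54.4 and 77.5, by 1.32 ± 0.26 (limma adjusted p = 0.00745). H2BC6 (H2B) went from 97.6 and 103 to 204, 176 and 239, by 1.03 ± 0.18 (limma adjusted p = 0.00429). In both genes every treated array exceeded the controls. H2BC5 (H2B) went from 91.9 and 89.1 to 175, 140 and 183, by 0.87 ± 0.18 (limma adjusted p = 0.0101), a call lost without either control array (0.89 without replicate 1 and 0.85 without replicate 3). H1-2, a linker histone widely made in dividing and resting cells, went from 261 and 330 to 786, 605 and 705, by 1.24 ± 0.25 (limma adjusted p = 0.00822). Without control replicate 1 it was 1.07 and lost its call.

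The remaining 3 brighter members were not called with this drug. H2BC9 (H2B) read 96.6 and 90.9 on controls and 155, 107 and 136 with the drug, 0.48 ± 0.16 (limma adjusted p = 0.065). H1-3, another linker histone, read 116 and 116 against 170, 123 and 196, 0.46 ± 0.22 (limma adjusted p = 0.181). H4C11 (H4) read 157 and 166 against 172, 179 and 195, 0.17 ± 0.13 (limma adjusted p = 0.426). All 3 had treated arrays above both controls without passing the test.

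**Figure D2:**
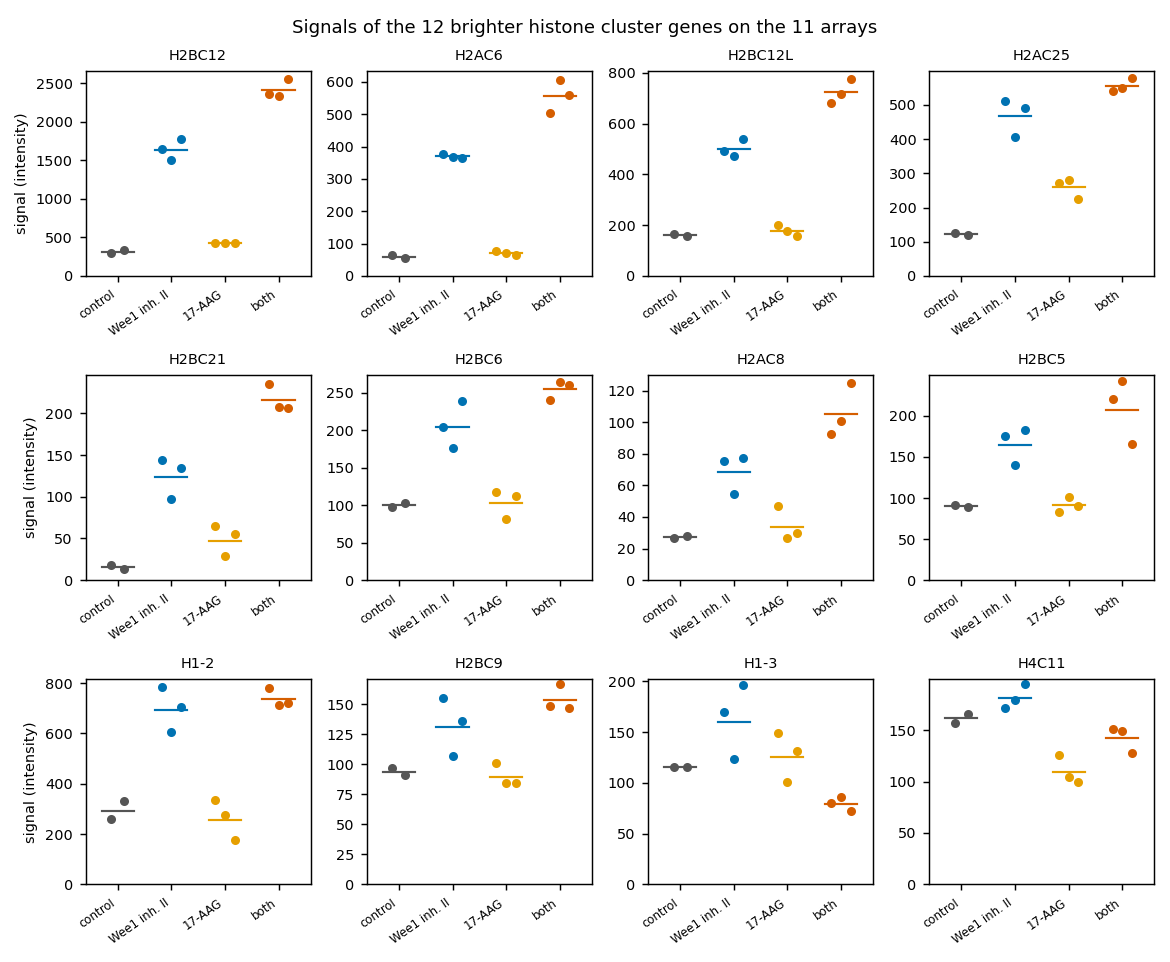
Signal (linear intensity, vertical axes from 0) of the brighter members on each of the 11 arrays, by group, with a bar at the group's geometric mean. Control and 17-AAG arrays of H2BC12 read 297 to 434, and those with Wee1 inhibitor II, alone or with 17-AAG, read 1500 to 2550.

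Few members were called with 17-AAG alone. Of the 46, 3 rose and 1 fell, where 16.7% of all genes were called, 9.93% higher and 6.8% lower. The members' median was 0.04, against 0.01 over all genes. The share of members called, 8.7%, was below that of all genes. None of the 34 dimmer members was called, and a missing call says little about those. All treated arrays lay above the controls for 8 members and below for 6. Groups did not overlap in either direction for 44.3% of all genes. With control replicate 2 included none was called (5 with array weights), and calls over all genes went from 3309 to 480 (3737 with array weights). Without control replicate 1 the member calls numbered 2, with 1728 over all genes.

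H2AC25 read 272, 281 and 226 with 17-AAG, up by 1.07 ± 0.13 from its control arrays of 126 and 120 (limma adjusted p = 0.0019). H2BC21 read 65.5, 29.4 and 55.2, up by 1.58 ± 0.33 (limma adjusted p = 0.0146), but by 0.61 and not called with signals below 32 set to 32 (limma adjusted p = 0.27). H2BC12 read 434, 434 and 430, up by 0.46 ± 0.10 (limma adjusted p = 0.0149). Each group lay wholly above its controls, while H2BC21 also lost its call without control replicate 3 (1.38) and H2BC12 without control replicate 1 (0.38). H4C11 read 126, 104 and 99.2, all below the controls, and fell by 0.56 with a standard error of 0.13 (limma adjusted p = 0.0217). Its call was lost without control replicate 1 (-0.60), control replicate 3 (-0.52), 17-AAG replicate 2 (-0.53) or 17-AAG replicate 3 (-0.49).

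H2AC6, among the clearest risers with Wee1 inhibitor II, read 76.6, 69.8 and 63.5 with 17-AAG, 0.22 ± 0.12 (limma adjusted p = 0.257). H1-2 read 335, 275 and 178, -0.20 ± 0.25 (limma adjusted p = 0.677). H2BC6 read 118, 81.7 and 112, 0.03 ± 0.18 (limma adjusted p = 0.942). Arrays of H1-2 and H2BC6 overlapped with control arrays, and those of H2AC6 lay just above them.

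With both drugs 14 members rose and 3 fell, where 28% of all genes were called, 16.7% higher and 11.3% lower. The members' median was 0.60, against 0.11 over all genes. By class, 5 H2A and 7 H2B genes rose (medians 1.95 and 1.31), 1 H1 gene rose and 1 fell, 1 H4 gene rose, and 2 H3 genes fell. Treated arrays lay wholly above the controls for 19 members and wholly below for 8. Groups did not overlap for 51.4% of all genes. Median centring turned the all-gene counts from 3306 higher and 2233 lower to 1933 and 2805, with 13 members higher and 3 lower. This comparison uses the same control arrays as the single-drug ones. With control replicate 2 included 1 member was called, against 16 higher and 3 lower when arrays were also weighted. Over all genes these settings called 1856 and 5993, against 5539 without that array.

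H2BC12 reached 2360, 2340 and 2550, a change of 2.94 ± 0.10 from control (limma adjusted p = 5.73e-06). H2AC6 reached 505, 607 and 559, a change of 3.22 ± 0.12 (limma adjusted p = 5.73e-06). H2BC21 reached 235, 208 and 206, a change of 3.77 ± 0.33 (limma adjusted p = 0.000116), or 2.75 (limma adjusted p = 0.000376) with signals below 32 set to 32. In all 3 the arrays with both drugs also stood above every array with Wee1 inhibitor II alone. H2BC12L read 680, 718 and 778, up by 2.16 ± 0.12 (limma adjusted p = 1.99e-05). H2AC25 read 539, 549 and 577, up by 2.17 ± 0.13 (limma adjusted p = 2.43e-05). H2AC8 read 92.5, 101 and 125, up by 1.95 ± 0.26 (limma adjusted p = 0.000873). Their arrays likewise exceeded those with Wee1 inhibitor II alone.

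H1-2 read 779, 714 and 720, up by 1.33 ± 0.25 (limma adjusted p = 0.00477) and within the range of the arrays with Wee1 inhibitor II alone. H2BC6 read 240, 265 and 260, up by 1.34 ± 0.18 (limma adjusted p = 0.000879). H2BC5 read 220, 242 and 166, up by 1.19 ± 0.18 (limma adjusted p = 0.00175). Only replicate 3 of H2BC5 fell inside the range of the single drug. H2BC9 read 149, 167 and 147 and was called here, at 0.72 ± 0.16 (limma adjusted p = 0.0117). Its call was lost without control replicate 3 (0.67) and, at 0.52, when each array was centred on its median.

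Genes that fell with both drugs were an H1 and 2 H3 genes of low signal. H3C2 (H3) read 77.7 and 110 on controls, 92.1, 57.1 and 92.2 with Wee1 inhibitor II, 141, 94.4 and 66.6 with 17-AAG, and 31.5, 44.4 and 38.9 with both. It fell by 1.29 on the log2 scale against control (SE 0.35; limma adjusted p = 0.0259). Only the arrays with both drugs stood below the rest. The call was lost without control replicate 1 or 3 or both-drug replicate 1 or 3 (-1.54 to -1.04). H3C7 (H3) read 31.1 and 38.9, then 37.6, 22.8 and 37.1, then 33.4, 28.1 and 28.5, and finally 18, 19.5 and 15.1. It fell by 0.99 (SE 0.24; limma adjusted p = 0.0141), with both-drug arrays again the lowest. Without control replicate 3 its call was lost (-0.83), and with signals below 32 set to 32 it came to -0.14.

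H1-1, a linker histone of restricted expression, was the 1 member that fell with Wee1 inhibitor II. It read 47.6 and 56.7 on controls, 19.3, 11.9 and 24.7 with Wee1 inhibitor II, 65.3, 30.3 and 29.1 with 17-AAG, and 17.6, 8.98 and 17.7 with both drugs. The changes were -1.54 ± 0.47 (limma adjusted p = 0.0452), -0.43 ± 0.47 (limma adjusted p = 0.632) and -1.88 ± 0.47 (limma adjusted p = 0.0178). Both groups given Wee1 inhibitor II lay wholly below the controls. The call with Wee1 inhibitor II held only when 17-AAG replicate 1, both-drug replicate 2 or Wee1 inhibitor II replicate 3 was the array left out, and was lost without each of the other 8 (-1.67 to -1.25). That with both drugs was lost without either control array (-2.01 and -1.76). With signals below 32 set to 32, both changes came to -0.70 and neither was called.

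**Figure D3:**
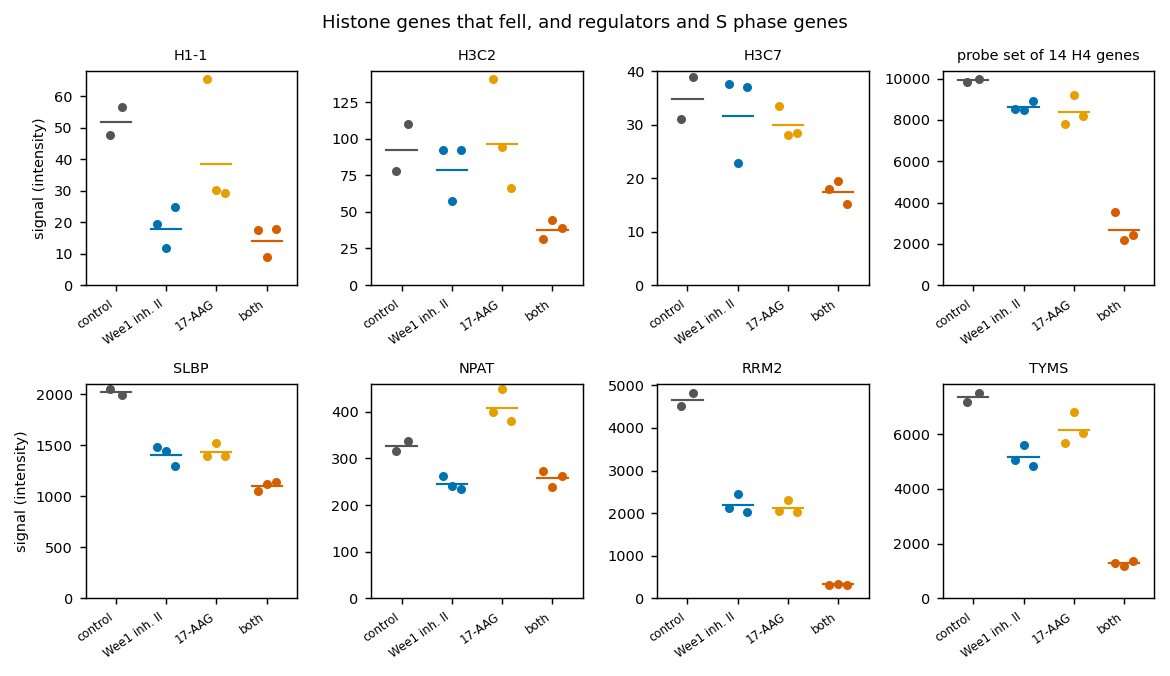
Signal (linear intensity, vertical axes from 0) on each of the 11 arrays, by group, with a bar at the group's geometric mean. Panels show the members H1-1, H3C2 and H3C7, the brightest probe set shared by 14 H4 genes, and the non-members SLBP, NPAT, RRM2 and TYMS. For H3C2 the arrays with both drugs read 31.5 to 44.4 and the other groups 57.1 to 141, while H1-1 was also low with Wee1 inhibitor II alone, at 11.9 to 24.7.

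The effect of adding Wee1 inhibitor II to 17-AAG compared none of the arrays that were compared for Wee1 inhibitor II against control. Here 13 members rose and 3 fell, where 19.3% of all genes were called, 10.9% higher and 8.43% lower. The median was 0.50, against 0.10 over all genes. Median centring gave 13 members higher and 5 lower, and 790 genes higher and 2349 lower in place of 2148 and 1668. Arrays with both drugs lay wholly above those with 17-AAG for 19 members and wholly below for 5, and groups did not overlap for 37.5% of all genes. Of the 13 members that rose on each side 12 were shared, 92.3% of each list. Both comparisons took their spread from the same fit over the 11 arrays, so these lists are not independent. The 3 that fell were H1-1, H3C2 and H3C7, and none fell without 17-AAG replicate 1 or both-drug replicate 1. The call of H1-1 held only when Wee1 inhibitor II replicate 2 was left out (-1.66 to -1.07 without each of the other 10). That of H3C7 was lost without any array of either group (-0.86 to -0.67), and that of H3C2 without 17-AAG replicate 1 or 2 or both-drug replicate 1 or 3 (-1.36 to -1.07). H2BC4 rose only against control and H2BC9 only against 17-AAG, and whether these 2 differ between the comparisons was not tested. Over all genes the lists of 2877 and 2148 risers shared 1093, or 38% and 50.9%. H2AC6 changed by 2.99 ± 0.10 (limma adjusted p = 7.04e-06) on top of 17-AAG and H2BC12 by 2.48 ± 0.09 (limma adjusted p = 7.04e-06). H2BC12L changed by 2.04 ± 0.11 (limma adjusted p = 2.99e-05). H2AC25, already higher with 17-AAG, changed by 1.10 ± 0.12 (limma adjusted p = 0.000556).

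Adding 17-AAG to Wee1 inhibitor II moved 6 members, 4 up and 2 down, where 14.1% of all genes were called, 7.27% higher and 6.84% lower. The median was -0.10, against 0 over all genes. Arrays with both drugs lay wholly above those with Wee1 inhibitor II for 8 members and wholly below for 5, and groups did not overlap for 32.9% of all genes. The comparison of 17-AAG with control compared other arrays, but took its spread from the same fit, so the calls are not independent. H2BC12 was the 1 member that rose in both, out of 3 there and 4 here (33.3% and 25%). Over all genes the lists shared 25.8% and 35.2%. H2BC12 rose by a further 0.56 ± 0.09 (limma adjusted p = 0.0037) and H2AC6 by 0.59 ± 0.10 (limma adjusted p = 0.00674). H2BC12L rose by 0.53 ± 0.11 (limma adjusted p = 0.0138), a call lost without Wee1 inhibitor II replicate 2 (0.49) or both-drug replicate 3 (0.48). H2AC17 (H2A) rose by 0.70 ± 0.17 (limma adjusted p = 0.0281), a call lost without Wee1 inhibitor II replicate 1 or 3 or any both-drug array (0.56 to 0.72). All 4 had groups that did not overlap. H1-3 read 80.1, 86.4 and 72.2 with both drugs, against 170, 123 and 196 with Wee1 inhibitor II alone. It fell by 1.01 (SE 0.20; limma adjusted p = 0.011), while its difference from control was -0.55 ± 0.22 (limma adjusted p = 0.11). H3C7 fell by 0.86 (SE 0.21; limma adjusted p = 0.0302), with the call lost without Wee1 inhibitor II replicate 1 or 3 or any both-drug array (-0.94 to -0.73).

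The interaction asks whether the effect of both drugs departs from the sum of the single effects on the log2 scale. No member rose above that sum and 2 fell short, where 11.8% of all genes were called, 4.82% above and 6.97% below. H2AC25 fell short by 0.83 (SE 0.18; limma adjusted p = 0.022): its single changes of 1.93 and 1.07 stood against 2.17 with both. H1-3 fell short by 1.13 (SE 0.30; limma adjusted p = 0.0457). H2AC25's call was lost without control replicate 1 or 3, 17-AAG replicate 1, both-drug replicate 1 or 2 or Wee1 inhibitor II replicate 3 (-0.86 to -0.79). That of H1-3 held only when Wee1 inhibitor II replicate 2 or 17-AAG replicate 2 was left out (-1.19 to -0.98 without the others). For H2BC12 the departure was 0.10 ± 0.13 (limma adjusted p = 0.717) and for H2AC6 0.36 ± 0.15 (limma adjusted p = 0.189).

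Rises with Wee1 inhibitor II were also called for H2AC17, H2AC15, H2BC4 and H4C8, which stayed under the line. H2AC17 read 22.5 and 19 on controls, 45.1, 69.6 and 52.2 with Wee1 inhibitor II, 21.5, 19.4 and 25.4 with 17-AAG, and 87.3, 90.9 and 88.9 with both. Its change with Wee1 inhibitor II was 1.40 ± 0.19 (limma adjusted p = 0.00129) and with both drugs 2.10 ± 0.19 (limma adjusted p = 0.000129). Arrays with 17-AAG alone overlapped the controls. H2AC15 (H2A) read 8.39 and 9.43, then 25.7, 29.5 and 33.6, then 11.7, 13.9 and 15.7, and then 40.4, 27.2 and 44. H2BC4 (H2B) read 1.62 and 11.3, then 37.2, 28 and 37.1, then 10, 15.7 and 13.6, and then 32.7, 40.5 and 46.4. H4C8 (H4) read 14.5 and 14.5, then 35, 37.1 and 23.6, then 11.1, 10.9 and 15.4, and then 36, 44.9 and 41.7. Both groups given Wee1 inhibitor II were above the controls in all 3. Changes with Wee1 inhibitor II were 1.73 ± 0.23 (limma adjusted p = 0.00113), 2.98 ± 0.67 (limma adjusted p = 0.0133) and 1.11 ± 0.23 (limma adjusted p = 0.00878). With signals below 32 set to 32 these came to 0.02, 0.14 and 0.11, none of them called, while H2AC17 came to 0.77 (limma adjusted p = 0.00777). H4C8 also lost its call without control replicate 3 (1.11; limma adjusted p = 0.051).

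In none of the 6 comparisons was a call made for the other 27 members.

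A second probe set was on the array for 6 members, and each of the 52 member probe sets was tested in a fit over all 41091 probe sets with 1 symbol. Of the 52, 16 rose and none fell with Wee1 inhibitor II, where 17.4% of all were called. With 17-AAG 3 rose and 1 fell (10.6% of all called), and with both drugs 17 rose and 3 fell (21%). Against 17-AAG the combination had 17 higher and 1 lower (13.1%), and against Wee1 inhibitor II 5 higher and 2 lower (9.53%). In the interaction 1 was above the sum and 1 below (6.45%). The second probe set of H2BC5 rose by 1.91 ± 0.17 (limma adjusted p = 0.00042) with Wee1 inhibitor II, more than the 0.87 of the one used above. For H4C8 the second rose by 2.50 ± 0.51 (limma adjusted p = 0.0117). For H3C6 the second, of mean signal 8.05, rose by 3.14 ± 0.81 (limma adjusted p = 0.0307) although the brighter one was not called. Those of H2AC25 (1.07 ± 0.55; limma adjusted p = 0.254) and H2AC15 (-0.12 ± 0.95; limma adjusted p = 0.957) were not called. Their standard errors were wide, and the difference from the first probe set was not tested. The second probe set of H1-6, a testis linker histone, had a mean signal of 4.84 and was called for both drugs against 17-AAG (1.89) and against the other drug (2.26), as well as in the interaction (3.20; limma adjusted p = 0.0421). Near-identical coding sequences make cross-hybridisation among cluster genes possible: 7 of the 46 probe sets used carry the suffix _x_at and 4 the suffix _s_at, which the array maker gives to probes that match several transcripts. Among the brighter members, H2BC12L, H2BC5, H2BC6, H2BC9 and H4C11 carry the first suffix, and H2AC6 and H2BC21 the second.

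Another 20 probe sets carried several cluster symbols, and 19 cluster genes were measured by those alone. In a fit over 54613 probe sets, chosen after seeing the data, 10 of the 20 rose with Wee1 inhibitor II and none fell (13.2% of all called). With 17-AAG 0 were called (7.15% of all). With both drugs 11 rose and 1 fell (16.4%). Against 17-AAG the combination had 14 higher and 1 lower (9.7%), against Wee1 inhibitor II 2 higher and 1 lower (6.59%), and in the interaction 1 was below the sum (3.94%). One shared by 2 H2A genes, H2AC18 and H2AC19, read 291 and 286 on controls, 1120, 766 and 1130 with Wee1 inhibitor II, 393, 248 and 360 with 17-AAG, and 1020, 1110 and 1030 with both. Its changes were 1.78 ± 0.24 (limma adjusted p = 0.00265), 0.18 ± 0.24 (limma adjusted p = 0.751) and 1.87 ± 0.24 (limma adjusted p = 0.00139). The H2B pair H2BC8 and H2BC11 read 20.4 and 18.9, then 117, 116 and 101, then 23.6, 20.8 and 22.1, and then 163, 153 and 174. In both pairs the arrays given Wee1 inhibitor II stood well above all others, while 17-AAG arrays overlapped the controls in the first and lay just above them in the second. A set shared by 10 H3 genes rose by 2.21 ± 0.34 (limma adjusted p = 0.00464) with Wee1 inhibitor II and 2.97 ± 0.34 (limma adjusted p = 0.000878) with both drugs, from controls of 10.1 and 8.66, below the floor of 32, so the size of this rise is uncertain. The other set with the same 10 symbols was at -0.07 ± 0.52 and -0.14 ± 0.52 and not called.

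The same 14 H4 genes were named on 5 shared sets, which did not move together. The brightest read 9830 and 10000 on controls, 8530, 8460 and 8920 with Wee1 inhibitor II, 7820, 9200 and 8190 with 17-AAG, and 3550, 2190 and 2420 with both drugs. The changes were -0.20 ± 0.20 (limma adjusted p = 0.614), -0.24 ± 0.20 (limma adjusted p = 0.578) and -1.90 ± 0.20 (limma adjusted p = 0.000635). Every array with both drugs was far below all others. Of the other 4, 1 rose with both drugs, by 1.23 ± 0.29 (limma adjusted p = 0.0217), from controls of 23 and 21. The rest were at 0.06 ± 0.15, 0.60 ± 0.62 and 0.62 ± 0.50 and not called. In the brightest set the interaction was -1.45 ± 0.27 (limma adjusted p = 0.0274), and in the other 4 it was 0.15, 3.00, 0.26 and -0.03, none called. Which of the 14 genes gave a signal cannot be read from these sets.

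Promoter elements followed histone class. The octamer, spelled ATTTGCAT or ATGCAAAT and searched on both strands of the 300 bases from 250 before to 50 after the start, was in 623 of 35116 RefSeq promoters (1.77%). Members held it in 16 of 41, all of them H2A (6 of 8) or H2B (10 of 13). Within H2A and H2B it stood in 7 of the 10 genes that rose with Wee1 inhibitor II and in 9 of the 11 that were not called. Most of those not called were dim genes, about which a missing call says little. These counts therefore cannot show whether the octamer goes with a rise. The H1 box was in all 6 H1 promoters and no other member's, against 5.64% of all promoters. CCAAT boxes, in 34.6% of all promoters, were in 36 of 41 members and in 2 of 7 H4 genes, and TATAAA or TTTATA, in 11.5% of all, was in 28 of 41. A match of letters is not a measured binding site.

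**Figure D4:**
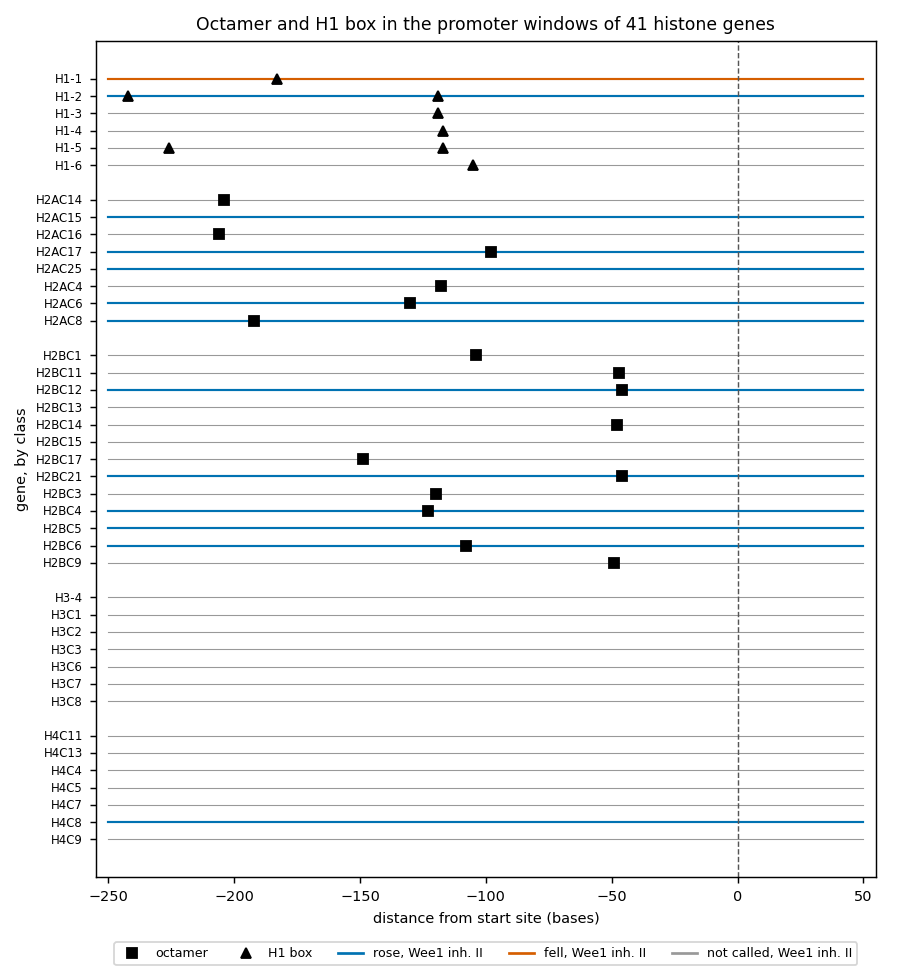
Position of octamer matches (squares) and H1 box matches (triangles) in member promoters, by distance in bases from the annotated start site (horizontal axis), with each gene's line coloured by its call with Wee1 inhibitor II. Octamers of H2BC12, H2BC21, H2BC11, H2BC14 and H2BC9 start at -46 to -49, and only the first pair belong to genes called higher with Wee1 inhibitor II.

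In the clusters H2A and H2B genes often lie head to head and share a promoter, and 5 divergent pairs of members had start sites within 1000 bases. H2BC4 and H2AC6, with 246 bases between their start sites, both rose with Wee1 inhibitor II (2.98 and 2.63), but with signals below 32 set to 32 H2BC4 was at 0.14 and not called. H2AC15 and H2BC15, 194 bases apart, changed by 1.73 and 1.63, of which only the first was called. H2AC17 and H2BC17, 240 bases apart, changed by 1.40, called, and 0.37, not called. H2AC14 and H2BC14, 245 bases apart, were at 0.48 and -0.13 and not called. H3C7 and H2BC9, 979 bases apart, were called in opposite directions with both drugs, at -0.99 and 0.72. With signals below 32 set to 32, H2AC15 and H3C7 lost these calls (0.02 and -0.14). H2BC15 and H2BC17 were dim, where a missing call says little, and whether the partners of a pair differ was not tested.

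Other genes of histone supply and replication were read from 4 lists. The shares of all genes to set beside their counts were 14.5% higher and 10.3% lower with Wee1 inhibitor II. With 17-AAG they were 9.93% and 6.8%, and with both drugs 16.7% and 11.3%. Of the 14 measured regulators and 3′ processing factors of histone messages, 0 rose and 6 fell with Wee1 inhibitor II, 1 rose and 3 fell with 17-AAG, and 1 rose and 7 fell with both. SLBP, the stem-loop binding protein, read 2050 and 1990 on controls, 1480, 1440 and 1300 with Wee1 inhibitor II, 1390, 1520 and 1390 with 17-AAG, and 1050, 1120 and 1140 with both. It changed by -0.52 ± 0.09 (limma adjusted p = 0.00401), -0.50 ± 0.09 (limma adjusted p = 0.00851; -0.47 and not called without control replicate 1) and -0.87 ± 0.09 (limma adjusted p = 0.000249). Every treated array was below the controls. CSTF2, a cleavage factor of polyadenylation and histone 3′ ends, changed by -0.69, -0.64 and -0.65 (SE 0.08 each), all called. ERI1, an exonuclease that trims histone 3′ ends, changed by -0.56, -0.31 and -0.77 (SE 0.09 each), of which that with 17-AAG was not called.

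NPAT, the coactivator of cluster genes, fell with Wee1 inhibitor II by 0.41 (SE 0.11; limma adjusted p = 0.0238) and with both drugs by 0.34 (SE 0.11; limma adjusted p = 0.0429). The first call was lost without control replicate 1 or 3 or Wee1 inhibitor II replicate 2 or 3 (-0.45 to -0.36), and the second without 9 of the 11 arrays in turn (-0.39 to -0.29). LSM11, a subunit of the U7 particle that processes histone messages, changed by -0.36, 0.06 and -0.59 (SE 0.11 each), and the first and last were called. The first of these was lost without 8 of the 11 arrays in turn (-0.41 to -0.32). So the processing factors named here were lower or not called, while 13 members were higher, with Wee1 inhibitor II.

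Of 23 measured S phase genes, 0 rose and 18 fell with Wee1 inhibitor II (median -0.57), 0 rose and 10 fell with 17-AAG (median -0.50), and all 23 fell with both drugs (median -1.70). The shares of all genes that fell were 10.3%, 6.8% and 11.3%. RRM2, the small subunit of ribonucleotide reductase, read 4520 and 4810 on controls, 2110, 2460 and 2030 with Wee1 inhibitor II, 2050, 2300 and 2020 with 17-AAG, and 323, 343 and 323 with both. These were changes of -1.09, -1.14 and -3.82 (SE 0.11 each). CCNE2, cyclin E2, changed by -1.47, -1.21 and -3.08 (SE 0.13 each). TYMS, thymidylate synthase, changed by -0.51, -0.26 and -2.53 (SE 0.11 each), the second not called and the first lost without control replicate 3 (-0.48). GINS1 and PRIM1, of the replication machinery, changed with both drugs by -2.33 (SE 0.09) and -2.05 (SE 0.08). With Wee1 inhibitor II, alone or with 17-AAG, the S phase genes called were all lower and the H2A and H2B members called were all higher. Among other classes H1-1 was lower in both groups, and H3C2, H3C7 and the brightest 14-gene H4 set were lower with both drugs. The part of cell cycle stage was not tested.

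Histone chaperones were split, with 4 of 16 higher and 6 lower for Wee1 inhibitor II, 0 and 5 for 17-AAG, and 3 and 7 for both drugs. Of all genes, 24.9%, 16.7% and 28% were called in these comparisons. NASP, a carrier of H3, H4 and H1, changed by -0.49, -0.41 and -1.26 (SE 0.09 each), all called. Its calls with the single drugs were lost without control replicate 3 for Wee1 inhibitor II (-0.41) and without control replicate 3 or 17-AAG replicate 1 or 3 for 17-AAG (-0.40 to -0.33). ASF1B, a chaperone of new H3 and H4, changed by -0.85, -0.63 and -1.78 (SE 0.15 each). Its 17-AAG call was lost without either control array or 17-AAG replicate 1 or 3 (-0.71 to -0.55). HAT1, which acetylates new H4, changed by -0.51, -0.29 and -0.99 (SE 0.10 each), of which the second was not called. NAP1L4 and SUPT16H, chaperones of H2A and H2B, changed with both drugs by -1.04 (SE 0.10) and -0.43 (SE 0.07).

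Replacement histones, which come from genes outside the clusters and mostly from ordinary polyadenylated messages, did not share 1 direction. Of 9 measured, 3 rose and 1 fell with Wee1 inhibitor II, 3 rose and 1 fell with 17-AAG, and 2 rose and 3 fell with both. The shares of all genes called were 24.9%, 16.7% and 28%. H1-10, a linker variant, read 386 and 407 on controls, 1030, 1040 and 1020 with Wee1 inhibitor II, 803, 627 and 732 with 17-AAG, and 724, 588 and 715 with both. It changed by 1.38, 0.85 and 0.76 (SE 0.13 each), all called. H2AJ, an H2A variant, changed by 0.88, 0.63 and 0.97 (SE 0.14 each), with the 17-AAG call lost without either control array or 17-AAG replicate 1 (0.56 to 0.71). H2AX, the variant phosphorylated at DNA breaks, read 1080 and 1180 on controls and 426, 401 and 367 with both drugs. Its changes were -0.19, -0.60 and -1.51 (SE 0.10 each), of which the first was not called. CENPA, the H3 variant of centromeres, changed by 0.09, 0.19 and -1.86 (SE 0.16 each), and only the last was called. H2AZ2 changed by 0.55, 0.33 and -0.12 (SE 0.09 each), with the second lost without 9 of the 11 arrays in turn (0.30 to 0.35) and the last not called.

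Control replicate 2, whose markers differ from those of the other arrays, was set beside them after seeing the data. It lay above all 11 arrays for 17 members and below them for 8, where the shares over all genes were 23.5% and 23.9%. At a signal of at least 100 and at least 2-fold above every other array stood 9 members, against 5.28% of all genes. H2AC6 read 3050 there, against 607 as the highest of the other arrays, and H1-2 read 1760 against 786. H2BC12L read 1990 against 778, and H2BC4, with no other array above 46.4, read 683. The brightest 14-gene H4 set, in contrast, read 4660, below the 9830 and 10000 of the other controls.

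**Figure D5:**
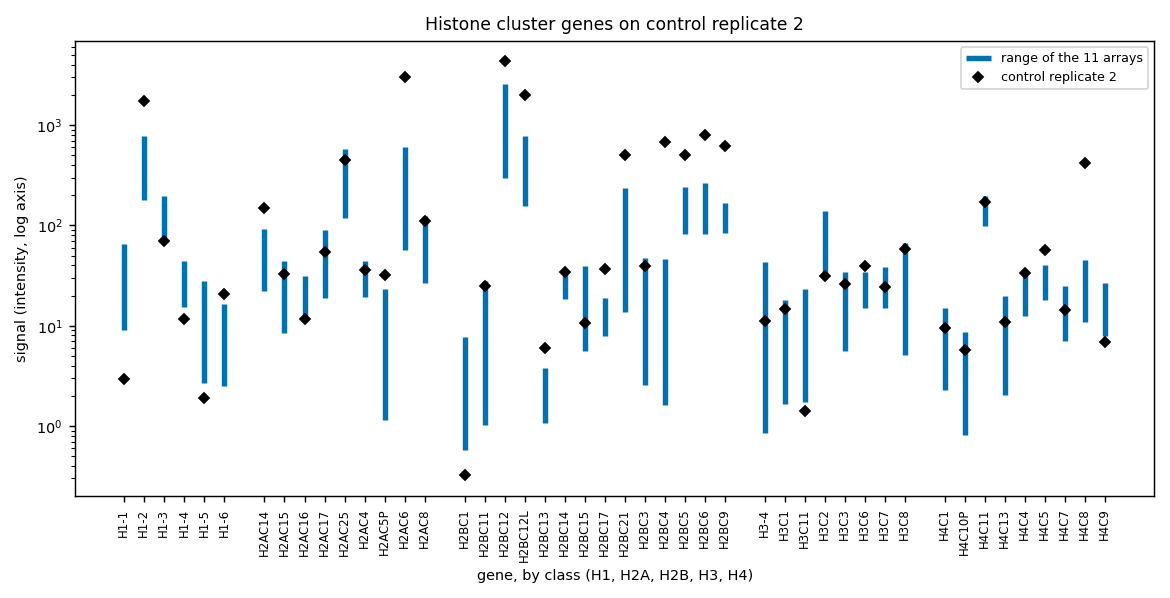
Signal (linear intensity, log axis) of members on control replicate 2 (points) beside the range over the 11 other arrays (lines). H2AC6, H2BC12L and H1-2 stand above their lines at 3050, 1990 and 1760.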

How the data were processed

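Each array's deposited file column holds 1 intensity for every probe set. Partek 6.5 and RMA are named in the submitters' processing notes. Per the labels, 100 ng of RNA was labelled with a 3′ in vitro transcription kit. The values are linear, from 0.0212394 to 17908.2, unlike the log2 output of RMA, and were log2 transformed without further normalisation. Per the labels, control replicate 2 was removed for weak signal.

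Of 54675 probe sets, 41091 carried 1 symbol. The one with the highest mean over 11 arrays was kept for each of 19775 genes. Groups were compared with limma 3.58.1 in R 4.3.3 (lmFit and eBayes, 7 residual degrees of freedom), with Benjamini-Hochberg adjustment over all genes and calls at an adjusted p under 0.05. The procedure was tested on simulated data.

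Values on every array were given for members reaching a signal of 100 in some group, and context genes were the 5 with the smallest p of each list. Dimmer members with a call, H3C2 included, were named after their values were seen. Members and lists were chosen with earlier results of these data known. Shared replicate numbers did not pair arrays (15 pairs, r -0.03 to 0.02). Alternatives were other scalings, filters, floors, thresholds, arrays and moderation.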

Additional observations from a re-analysis of the deposited data

Results flagged for a closer look

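For 3 readings the effect of both drugs departed from the sum of the single-drug effects (interaction term in limma, adjusted p under 0.05). These were 2 of 46 members, where 11.8% of all genes were called, and 1 of 20 shared probe sets, where 3.94% of all probe sets were called. The values were -1.13 (log2) for H1-3, -0.83 for H2AC25 and -1.45 for the brightest of 5 probe sets shared by 14 H4 genes. In the other 4 of those sets it was 0.15, 3.00, 0.26 and -0.03, none called. The call of H1-3 was lost in 13 of its alternatives and that of H2AC25 in 10.

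On control replicate 2, an array outside the comparisons, 5.28% of all genes read at least 100 and at least 2-fold above all 11 other arrays. So did the signals of 9 of the 46 members. They were 1760 for H1-2, 3050 for H2AC6, 1990 for H2BC12L, 506 for H2BC21, 683 for H2BC4, 499 for H2BC5, 793 for H2BC6, 626 for H2BC9 and 422 for H4C8. This array also reads 2090 for HOXB13 and 2.67 for MLANA, and its part in these signals was not tested.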

How the results depend on the processing

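With control replicate 2 included, called members numbered 0 for Wee1 inhibitor II against control, 0 for 17-AAG against control, 1 for both drugs against control, 1 for both drugs against 17-AAG, 0 against Wee1 inhibitor II, and 0 in the interaction. With array weights as well, they numbered 15, 5, 19, 18, 4 and 2. Over all genes the calls without weights numbered 1268, 480, 1856, 542, 389 and 119, and with weights 5232, 3737, 5993, 3775, 2723 and 2463. Including the array without weights reversed H4C8 (-0.51 with Wee1 inhibitor II, -0.13 with both drugs), ERI1 (0.25 and 0.05), PRIM1 (0.08 with Wee1 inhibitor II), H2BC12 (-0.80 with 17-AAG), H2BC21 (-0.09 with 17-AAG) and H2BC9 (-0.19 with both drugs). Averaging the probe sets of a gene reversed NAP1L4 (0.02 with Wee1 inhibitor II, 0.07 for both drugs against 17-AAG), SUPT16H (0.08 with Wee1 inhibitor II) and the interaction of H2AX (0.13). It called 0 members for the interaction, with 1099 over all genes. For 17-AAG against control the count was 2 with arrays centred on their medians, 7 without the dimmest 40% of genes, 0 with only the arrays compared, 1 at an adjusted p under 0.01 and 2 with a 2-fold minimum. Over all genes these settings called 2204, 4431, 0, 1493 and 710. For both drugs against Wee1 inhibitor II the member count was 2 and 1 with the last pair of thresholds, with 1487 and 734 over all genes. For the interaction it was 0 with median centring, 0 at an adjusted p under 0.01, 1 with a 2-fold minimum and 0 with the replicate block. Over all genes these called 1255, 828, 895 and 1483. The block gave 14, 4, 16, 15 and 5 calls in the other comparisons, with 4173, 2574, 4927, 3092 and 2194 over all genes. The shared numbers do not pair the arrays. Leaving out 1 array at a time gave 13 to 14 calls with Wee1 inhibitor II, 2 to 6 with 17-AAG, 15 to 18 with both drugs, 13 to 18 for both drugs against 17-AAG, 4 to 7 against Wee1 inhibitor II, and 0 to 2 in the interaction. In the same order, calls over all genes were 3225 to 4891, 1705 to 3159, 4009 to 5494, 2739 to 3590, 1996 to 2819 and 1350 to 2223. Median centring moved the median of all genes with Wee1 inhibitor II from 0.12 to -0.11 and their rises and falls from 2877 and 2045 to 1444 and 2875, while members numbered 13 and 1. No called member changed sign under either other scaling. Of single-gene values under the alternatives, 4843 kept their call or lack of one, 376 lost the call and 70 gained it. Another 12 reversed, with a call before or after. A change of sign without a call in either setting was counted among the 4843. The cause of these changes was not tested. With 2 control arrays and 34 members at low signal, small changes of dim genes could not be seen.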
